A study of Mus musculus with 39 samples.

Results

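The progenitor homeobox and Sox factors described here are 9 genes, Six3, Six6, Pax6, Lhx2, Rax, Sox2, Sox4, Sox9 and Sox11, out of 18193 genes measured. They were chosen by name, as the probe sets that the array annotation pairs with these symbols only, which gave 29 of 34945 probe sets. Each gene is represented by its probe set of highest mean over all arrays. The arrays were Affymetrix mouse whole-genome arrays of photoreceptors sorted for green fluorescent protein (GFP). The 5 ko groups, Nrl-ko-Gfp mice at E16 (3 arrays), P2, P6, P10 and 4 weeks (4 arrays each), lack Nrl, a bZIP transcription factor without which rods do not form. The 5 wt groups, Wt-Gfp mice at the same stages (4 arrays each), have an intact Nrl gene. In both genotypes the GFP transgene is under an Nrl promoter, so the sorted cells are rod precursors and rods in wt and, in ko, the cells that would have become rods, which the design text describes as transformed S-cones. Every sample therefore carries the transgene, controls included, and the sort depends on the activity of that promoter at each stage. RNA was amplified before hybridisation. The title of ko 4 weeks replicate 1, alone among the sample titles, contains the word retina.

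Pax6, Six3, Six6, Rax and Lhx2 belong to the eye field transcription factors, which specify the optic vesicle and keep retinal progenitors competent to divide and to produce each retinal cell class. Sox2 maintains neural progenitors, Sox9 acts in late progenitors and Müller glia, and Sox4 and Sox11, the SoxC factors, act in newly postmitotic neurons. In the mature mouse retina Pax6 is known from amacrine, horizontal and ganglion cells, Sox2 from Müller glia and some amacrine cells, and Sox9, Lhx2 and Rax from Müller glia. Six3 is found in inner retinal neurons, and Six6 in ganglion and amacrine cells.

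Nrl itself lay between 5.36 and 6.48 (log2 signal) on 18 of the 19 ko arrays and between 8.76 and 12.33 on the 20 wt arrays. The array labelled ko 4 weeks replicate 2 went against its label, with Nrl at 9.05. Over all genes it correlated at 0.9377 to 0.9573 with the other ko 4 weeks arrays and at 0.9625 to 0.9753 with wt E16 arrays, while its cone genes, at a mean of 11.56, were near the level of the other ko 4 weeks arrays. Its cell cycle markers averaged 9.02, against 7.38 to 7.53 on the other ko 4 weeks arrays. Results of the 9 genes that rest on it are therefore given with and without it. Rod genes averaged 9.09 to 9.35 in ko and 12.08 to 12.19 in wt at 4 weeks, and cone genes averaged 11.56 to 12.05 in ko and 8.03 to 9.69 in wt. The SD of log2 values within an array ranged from 1.34 (ko E16 replicate 3) to 1.80. On ko E16 replicate 3 each of the 9 genes read lower than on the other ko E16 arrays.

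In wt cells all 9 genes fell between E16 and 4 weeks, with a median difference of -2.49 (log2) against 0.05 over all genes. Of all 18193 genes, 11.6% were lower in this comparison and 18.3% changed in either direction (limma, Benjamini-Hochberg adjusted p under 0.05). In ko cells 2 of 9, Sox4 and Sox11, fell over the same interval (3.25% of all genes lower), and 7 of 9 fell without the array labelled ko 4 weeks replicate 2 (5.12% of all genes lower). Lhx2, among the 7, was called absent in ko at every stage with a detection call. Six6 and Rax were the 2 not called in ko in either fit. These are bulk measurements of sorted cells, in which fewer cells of a type and less RNA per cell cannot be told apart.

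**Figure D1:**
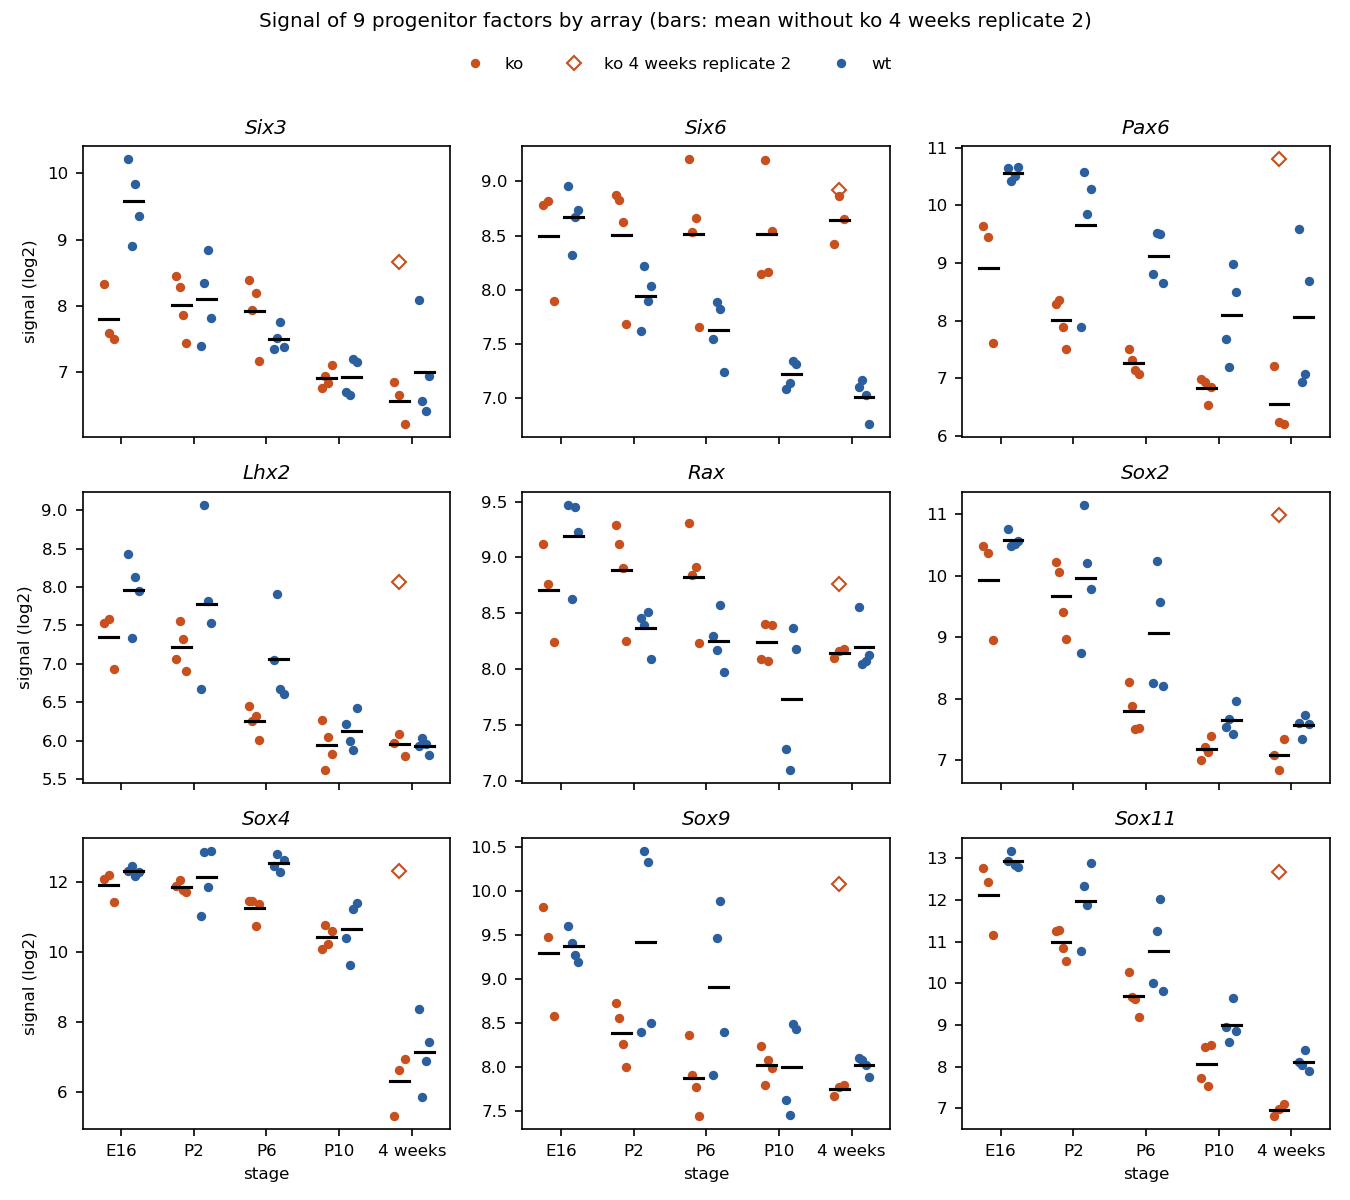
Signal (log2) of each of the 9 genes on every array by stage, ko (orange) left of wt (blue), with black bars at group means computed without the array labelled ko 4 weeks replicate 2, which is drawn as an open diamond. Six6 stays near 8.5 in ko at all 5 stages and declines in wt, Pax6 is lower in ko than in wt at most stages, and the open diamond stands far above the other ko 4 weeks arrays in Sox2, Sox4, Sox9, Sox11, Pax6 and Lhx2.

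Six6, a sine oculis family repressor that sustains progenitor proliferation and is required for optic nerve formation, showed a genotype difference that widened with age. At E16 its log2 signal was 8.78, 8.82 and 7.90 in ko and 8.96, 8.33, 8.67 and 8.73 in wt. At P2 it was 8.88, 8.82, 8.62 and 7.69 in ko and 7.62, 8.22, 7.90 and 8.03 in wt. The genotypes overlapped at both of these stages. At P6 the signal was 9.20, 8.53, 8.66 and 7.66 in ko and 7.55, 7.89, 7.83 and 7.25 in wt, with only ko replicate 4 inside the wt range. At P10 it was 8.14, 9.20, 8.16 and 8.54 in ko and 7.09, 7.14, 7.34 and 7.32 in wt. At 4 weeks it was 8.42, 8.92, 8.87 and 8.65 in ko and 7.10, 7.17, 7.04 and 6.77 in wt. At P10 and 4 weeks every ko array lay above every wt array, which held for 3.17% and 4.18% of all genes, and the array labelled ko 4 weeks replicate 2 (8.92) did not stand apart in this gene.

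The Six6 difference (ko minus wt, log2) was -0.17 ± 0.29 (SE) at E16, 0.56 ± 0.27 at P2 and 0.89 ± 0.27 at P6, none of which was called (adjusted p = 0.724, 0.965 and 0.0935 in limma). It was 1.29 ± 0.27 at P10 (adjusted p = 0.00297) and 1.70 ± 0.27 at 4 weeks (adjusted p = 3.07e-05), or 1.63 ± 0.29 without the array labelled ko 4 weeks replicate 2 (adjusted p = 0.000255). Among the 9 genes Six6 was the 1 called at P10 and at 4 weeks, where 2.81% and 4.73% of all genes were called. Without ko P6 replicate 4, whose values have a low SD of 1.40, the P6 difference was 1.17 and was called (adjusted p = 0.0101). Between E16 and 4 weeks Six6 changed by 0.22 ± 0.29 in ko (adjusted p = 0.92) and fell by 1.66 ± 0.27 in wt (adjusted p = 1.58e-05). These changes differed by 1.87 ± 0.39 between the genotypes (adjusted p = 0.00308), and by 1.80 ± 0.41 without the array labelled ko 4 weeks replicate 2 (adjusted p = 0.00823; 2.73% of all genes). Six6 was the 1 gene of 9 called in this test, against 3.07% of all genes. It was also the 1 of 9 whose genotype effect differed between stages (F test, adjusted p = 0.022), against 3.14% of all genes, and this call was lost when either replicate 3 of ko or replicate 1 of wt at E16 was dropped (adjusted p up to 0.0631).

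The Six6 promoter is shown because Nrl is the deleted factor and Six6 was the gene of the 9 called between the genotypes at P10 and 4 weeks. It is the 250 bases before the annotated start of Six6 on the plus strand (RefSeq, GRCm38.p6, chr12:72939632-72939881), with capitals on matches, on either strand, to 6 motifs. These were the homeodomain core TAATTA, the Crx and Otx core TAATCC and the Nrl half-site TGCTGA. The others were the Sox core ACAATG, the NF-Y box CCAAT and the GC box GGGCGG.
Six6: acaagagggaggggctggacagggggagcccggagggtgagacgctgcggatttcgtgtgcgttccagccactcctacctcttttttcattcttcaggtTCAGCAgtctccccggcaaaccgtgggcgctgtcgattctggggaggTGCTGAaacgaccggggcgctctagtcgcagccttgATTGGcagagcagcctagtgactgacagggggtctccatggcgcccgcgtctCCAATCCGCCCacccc
TGCTGA occurred at 151 bases (minus strand) and 104 bases (plus strand) before the start, CCAAT at 68 and 16 bases, and GGGCGG (minus strand) at 11 bases, directly after the second CCAAT. Of 7 members with a window in the table, 2 (Six6 and Sox2) held TGCTGA, as did 16.1% of 32851 mouse windows of the same length. CCAAT was in 6 of the 7 genes and 33.8% of all windows, GGGCGG in 4 of 7 and 32.7%, and the homeodomain, Crx and Sox cores in 0 of 7 and in 4.8%, 6.3% and 10.7% of all windows. The units differ, since a gene was counted when any of its windows matched, whereas the shares are of single windows. Pax6 and Lhx2 each had a second window, without any of the motifs. A match is a run of letters and does not show that a factor binds there.

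Six3, the paralog of Six6 and a repressor of Wnt signalling in the anterior neural plate, differed at the earliest stage. At E16 its signal was 8.33, 7.59 and 7.49 in ko and 10.21, 8.90, 9.84 and 9.36 in wt, with no overlap between the genotypes (5.27% of all genes lay wholly lower in ko). The difference was -1.77 ± 0.42 (adjusted p = 0.0315), or a 3.42-fold lower signal in ko. Six3 was the 1 gene of 9 called at E16, against 1.13% of all genes. The call was lost when ko replicate 2 or 3 or wt replicate 1, 3 or 4 of this stage was left out (adjusted p up to 0.153). It was stronger without the array labelled ko 4 weeks replicate 2 (adjusted p = 0.00581), which enters the shared estimate of the spread.

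By P2 the genotypes overlapped in Six3, at 8.45, 8.28, 7.87 and 7.44 in ko and 7.39, 8.34, 8.84 and 7.81 in wt. From E16 to P2 Six3 fell by 1.48 ± 0.39 in wt (adjusted p = 0.0305; 3.97% of all genes were called), and it differed by 0.20 ± 0.42 in ko (adjusted p = 0.8). The wt call was lost without wt E16 replicate 1 or 3 or wt P2 replicate 1 or 4 (adjusted p up to 0.184). The E16 to P2 step itself differed between ko and wt by 1.69 ± 0.58, which was not called (adjusted p = 0.525). Over the whole interval Six3 fell by 2.58 ± 0.39 in wt (adjusted p = 7e-06), and in ko it differed by -0.71 ± 0.42 with all arrays (adjusted p = 0.484) and fell by 1.24 ± 0.38 without the array labelled ko 4 weeks replicate 2 (adjusted p = 0.0307). Whether its genotype effect differed between stages depended on that array, with an adjusted p of the F test of 0.134 with it and 0.0407 without it (2.97% of all genes).

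At E16 the wt arrays also had higher ganglion cell markers, at a mean of 7.30 to 7.84 in ko and 8.003 to 8.64 in wt. Of the 14 measured markers, 5 were lower in ko (0.819% of all genes). Among them was Nefl (-1.94 ± 0.29, adjusted p = 0.000204), a neurofilament subunit. Of the 9 lens markers, 2 were lower in ko at E16, Cryba1 (-2.43 ± 0.50, adjusted p = 0.00936) and Cryga (-1.90 ± 0.32, adjusted p = 0.00138), both crystallins. The lens list averaged 6.36 to 6.99 in ko and, in wt replicates 1 to 4, 6.25, 7.76, 7.63 and 7.40. Six3 on these wt arrays was 10.21, 8.90, 9.84 and 9.36 in the same order. Amacrine and horizontal cell markers averaged 6.91 to 7.18 in ko and 7.49 to 7.84 in wt at E16, without overlap. Of these 18 markers, 0 were called by limma and 6 had an unadjusted p under 0.05, against 14.6% of all genes. The part of these cells in the Six3 difference was not tested.

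**Figure D2:**
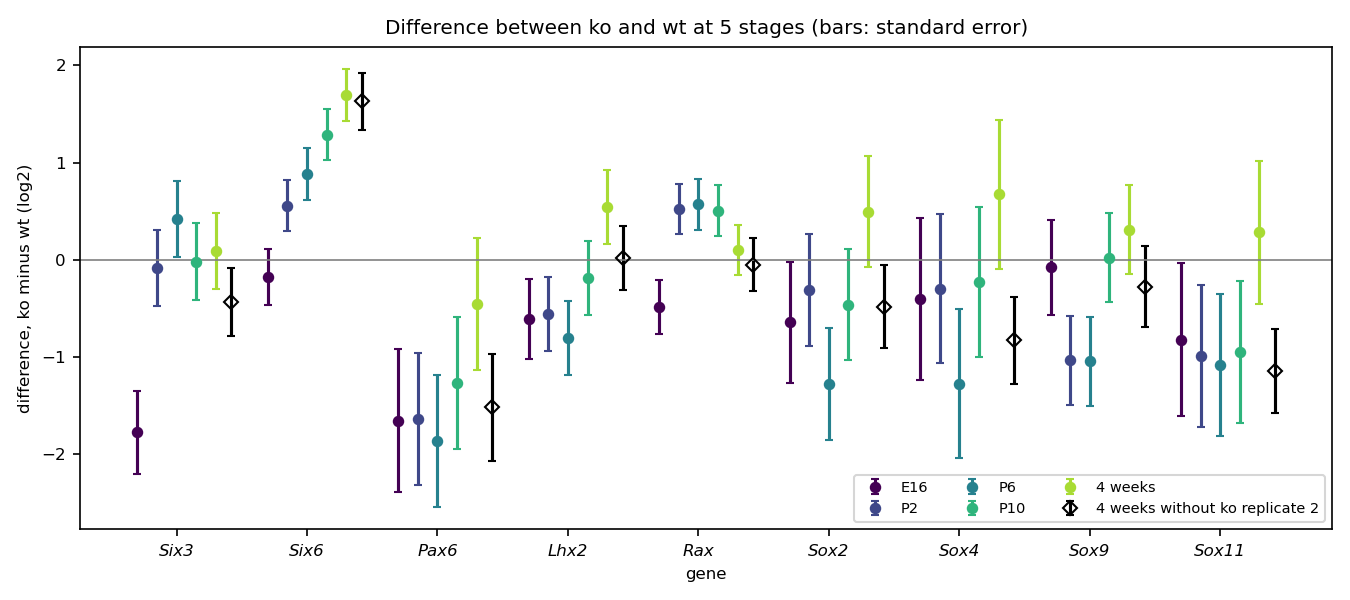
Difference between ko and wt (ko minus wt, log2, y axis) for each gene at 5 stages, with standard errors as bars and the 4 weeks value without ko replicate 2 as an open diamond. Six6 moves from -0.17 at E16 to 1.70 at 4 weeks, Six3 lies at -1.77 at E16 and near 0 at P10, and Pax6 lies below 0 at every stage.

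Pax6 is the paired homeobox factor that keeps progenitors multipotent and is retained by amacrine, horizontal and ganglion cells. On 1419271_at, the probe set that represents it, mean signal was lower in ko at each stage, with a wide spread. At E16 it read 9.64, 9.46 and 7.62 on ko arrays, against 10.65, 10.42, 10.52 and 10.66 on wt arrays. At P6 it read 7.50, 7.32, 7.15 and 7.07 on ko arrays, against 8.82, 9.52, 9.50 and 8.65 on wt arrays. At P10 it read 6.99, 6.93, 6.53 and 6.85 on ko arrays, against 7.69, 7.20, 8.97 and 8.50 on wt arrays. The genotypes did not overlap at these 3 stages, at which 5.27%, 5.56% and 4.28% of all genes lay wholly lower in ko. The differences were -1.65 ± 0.74, -1.86 ± 0.68 and -1.27 ± 0.68, none of which was called (adjusted p = 0.293, 0.223 and 0.41). Leaving out a single E16 array moved the E16 difference to between -2.02 and -1.01, the smallest being without the ko array at 7.62.

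At P6 0 of the 9 genes were called by limma (1.54% of all genes), while 6 of 9 had an unadjusted p under 0.05, against 11.1% of all genes. This count takes both directions together. The means of Six3, Six6 and Rax were higher in ko at P6, and those of the other genes were lower. Without the array labelled ko 4 weeks replicate 2, Pax6 was called at P6 with an adjusted p of 0.0488 (1.89% of all genes). At 4 weeks Pax6 read 7.21, 10.80, 6.23 and 6.21 on ko arrays, against 9.59, 6.93, 7.08 and 8.68 on wt arrays, and the value of 10.80 was that of replicate 2. In wt Pax6 fell by 2.49 ± 0.68 between E16 and 4 weeks (adjusted p = 0.00744). In ko the change was -1.29 ± 0.74 with all arrays (adjusted p = 0.448), and Pax6 fell by 2.36 ± 0.59 without replicate 2 (adjusted p = 0.00652).

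Within the wt groups at P2 and 4 weeks, the arrays with low amacrine and horizontal cell markers were also those with low Pax6. In wt at 4 weeks the 18 measured markers averaged 8.03 and 7.90 in replicates 1 and 4, in which Pax6 was 9.59 and 8.68, and 7.02 and 7.10 in replicates 2 and 3, in which Pax6 was 6.93 and 7.08. The same split was seen in other lists. Cone genes averaged 9.69 and 9.29 in wt replicates 1 and 4, against 8.03 and 8.22 in replicates 2 and 3. Bipolar cell markers averaged 7.80 and 7.87, against 7.55 and 7.60. At P2 wt replicate 1 had a marker mean of 7.14 and Pax6 at 7.89, against 7.80 to 7.85 and 9.86 to 10.58 in the other 3 wt arrays. The P2 split, too, was wider than Pax6. Six3, Six6, Lhx2, Sox2, Sox4, Sox9 and Sox11 were also lowest on this array among the wt P2 arrays, and Rax was not. Its immature neuron markers averaged 9.32, against 9.66 to 9.87 on the other wt P2 arrays, and its rod genes 9.74, against 8.85 to 9.39. On the ko arrays the amacrine and horizontal marker mean was 6.82 to 7.21, except 7.80 on the array labelled ko 4 weeks replicate 2. Pax6 ran from 6.21 to 9.64 on the ko arrays other than that one. At P6, 2 of the 18 markers were lower in ko (0.748% of all genes). These were Tfap2b (-3.50 ± 0.63, adjusted p = 0.00104), a factor of amacrine and horizontal cells, and Gad1 (-2.78 ± 0.65, adjusted p = 0.0196), which makes the transmitter GABA. The part of these cells in the Pax6 differences was not tested.

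**Figure D3:**
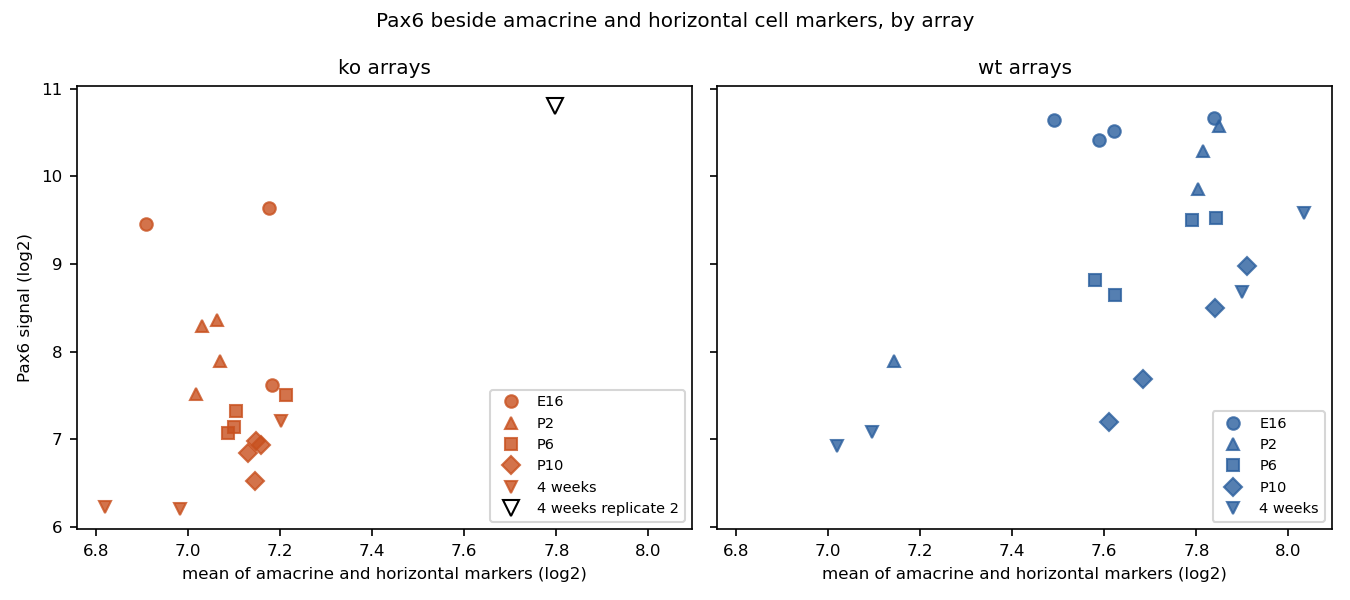
Pax6 signal (log2, y axis) against the mean log2 signal of 18 amacrine and horizontal cell markers (x axis), 1 point per array, with ko arrays on the left and wt arrays on the right and symbols for stage. The ko arrays lie between 6.82 and 7.21 on the x axis apart from 4 weeks replicate 2 at 7.80, and the wt 4 weeks arrays split into 2 with high and 2 with low values on both axes.

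Lhx2, a LIM homeobox factor needed for the optic vesicle and for Müller glia, was called absent in many groups. The deposited detection calls give it as absent in ko at all 4 stages from E16 to P10, and in wt as present at E16 and P2 and absent at P6 and P10. Six3, Six6, Pax6, Sox2, Sox4 and Sox11 were called present at each of these stages in both genotypes. At E16 Lhx2 read 7.54, 7.58 and 6.93 on ko arrays, against 8.42, 7.34, 8.13 and 7.95 on wt arrays, and at 4 weeks it read 5.98, 8.06, 6.09 and 5.80 in ko, against 5.93, 6.03, 5.95 and 5.82 in wt. It fell by 2.03 ± 0.38 in wt over this interval (adjusted p = 0.000138). In ko the difference was -0.87 ± 0.41 (adjusted p = 0.28), and -1.40 ± 0.36 without replicate 2, the array at 8.06 (adjusted p = 0.00784). As the ko signals at E16 were called absent, the size of this ko difference is not a measured fold.

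Rax, the retinal homeobox factor that starts eye formation and later promotes Müller glia, moved least in wt. At E16 it read 9.12, 8.76 and 8.24 on ko arrays, against 9.47, 8.63, 9.45 and 9.23 on wt arrays, and at 4 weeks it read 8.10, 8.76, 8.16 and 8.18 in ko, against 8.55, 8.05, 8.07 and 8.13 in wt. It fell by 0.99 ± 0.26 in wt (adjusted p = 0.00474), and the change in ko was -0.40 ± 0.28 with all arrays (adjusted p = 0.606) and -0.56 ± 0.29 without replicate 2 (adjusted p = 0.343). Rax was called present in ko at E16, P2 and P6 and in wt at E16 only, while its ko minus wt difference at P2, P6 and P10 was 0.53, 0.57 and 0.51 and was not called at any of them (adjusted p = 0.975, 0.389 and 0.373).

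Sox2, the progenitor factor of the SoxB1 group, was high at E16 and low by P10 in both genotypes. At P2 it read 10.22, 10.06, 9.41 and 8.97 on ko arrays, against 8.74, 11.15, 10.21 and 9.79 on wt arrays. At P6 it read 8.28, 7.88, 7.50 and 7.52 on ko arrays, against 8.26, 10.24, 9.57 and 8.22 on wt arrays. At P10 it read 7.01, 7.22, 7.14 and 7.39 on ko arrays, against 7.54, 7.67, 7.42 and 7.97 on wt arrays. The ko arrays thus lay wholly below their own P2 values by P6 (9.16% of all genes), whereas 2 wt arrays were still above 9.5 at P6, and at P10 the genotypes did not overlap (4.28% of all genes lay wholly lower in ko). The P2 to P6 step in ko was -1.87 ± 0.57 with all arrays (adjusted p = 0.165), and Sox2 fell at this step without the array labelled ko 4 weeks replicate 2 (SE 0.39, adjusted p = 0.00994). The ko minus wt difference at P6 was -1.28 ± 0.57, which was not called (adjusted p = 0.38). At P10 the group means were 7.19 in ko and 7.65 in wt, with the nearest arrays at 7.39 and 7.42, and the difference was not called. The P2 to P6 step of Sox2 differed between ko and wt by -0.97 ± 0.81, which was not called either. From E16 to 4 weeks Sox2 fell by 3.01 ± 0.57 in wt (adjusted p = 0.000167). In ko the change was -1.88 ± 0.62 (adjusted p = 0.0613), and Sox2 fell by 2.85 ± 0.45 without replicate 2 (adjusted p = 3.78e-05). It was also called without ko E16 replicate 3.

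Sox9, a SoxE factor of late progenitors and Müller glia, passed the test in wt by a narrow margin. At P2 it read 8.73, 8.55, 8.26 and 7.99 on ko arrays, against 8.39, 10.45, 10.33 and 8.49 on wt arrays, where 2 arrays were near 10.4 and 2 near 8.4. At P6 it read 8.36, 7.90, 7.77 and 7.44 on ko arrays, against 7.90, 9.47, 9.88 and 8.39 on wt arrays. Sox9 was called present in ko at E16 only and in wt at E16, P2 and P6. Over the whole interval it fell by 1.35 ± 0.46 in wt (adjusted p = 0.0347), a call that was lost whichever of the 8 arrays was left out (adjusted p 0.0512 to 0.0944). In ko the change was -0.96 ± 0.49 (adjusted p = 0.352), and Sox9 fell by 1.55 ± 0.45 without replicate 2 (adjusted p = 0.0211). Müller glia markers did not move with it as a list, since 6 of the 17 measured were higher and 3 lower at 4 weeks than at E16 in wt. Of all genes, 6.66% were higher and 11.6% lower in this comparison.

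Sox4 and Sox11 had the largest log2 differences between E16 and 4 weeks among the probe sets that represent the 9 genes. Their promoters are shown to set beside that of Six6, as the pair that fell most in both genotypes, each as the 250 bases before the start on the minus strand (RefSeq, GRCm38.p6), at chr13:28953700-28953949 for Sox4 and chr12:27342719-27342968 for Sox11, read 5′ to 3′ on the gene's strand with capitals on the same motifs.
Sox4: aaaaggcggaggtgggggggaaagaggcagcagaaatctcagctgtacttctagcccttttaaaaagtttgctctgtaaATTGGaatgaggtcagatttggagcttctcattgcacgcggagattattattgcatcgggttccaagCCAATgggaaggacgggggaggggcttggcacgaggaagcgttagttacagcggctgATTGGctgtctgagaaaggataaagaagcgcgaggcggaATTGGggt
Sox11: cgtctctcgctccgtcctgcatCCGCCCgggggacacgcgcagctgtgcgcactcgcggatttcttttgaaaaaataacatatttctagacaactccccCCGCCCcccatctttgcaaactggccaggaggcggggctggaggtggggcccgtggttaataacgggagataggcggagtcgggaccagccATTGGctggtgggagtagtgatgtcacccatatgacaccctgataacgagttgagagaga
The Sox4 window held CCAAT at 171, 104, 47 and 8 bases before the start and no other of the 6 motifs, and the Sox11 window held CCAAT at 60 bases and GGGCGG at 228 and 151 bases.

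Sox4 stayed high until P10 and was low at 4 weeks. At P6 it read 11.46, 11.46, 10.75 and 11.38 on ko arrays, against 12.46, 12.79, 12.27 and 12.61 on wt arrays, without overlap (5.56% of all genes lay wholly lower in ko). At P10 it read 10.09, 10.78, 10.22 and 10.61 on ko arrays, against 10.39, 9.62, 11.21 and 11.39 on wt arrays. At 4 weeks it read 5.32, 12.31, 6.64 and 6.96 on ko arrays, against 8.37, 5.87, 6.88 and 7.42 on wt arrays, with ko replicate 2 at 12.31, the level of E16. The P6 difference was -1.27 ± 0.77 and was not called (adjusted p = 0.615). From P10 to 4 weeks Sox4 fell by 3.52 ± 0.77 in wt (adjusted p = 0.00359; 5.34% of all genes were called). In ko this step was -2.62 ± 0.77 with all arrays (adjusted p = 0.117), and Sox4 fell by 4.12 ± 0.45 at it without replicate 2 (adjusted p = 2.44e-07). From E16 to 4 weeks Sox4 fell by 4.09 ± 0.83 in ko (adjusted p = 0.001), fell by 5.60 ± 0.48 without replicate 2, and fell by 5.17 ± 0.77 in wt (adjusted p = 4.81e-06).

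The mean of Sox11 was lower at each later stage in both genotypes, leaving out the array labelled ko 4 weeks replicate 2. In ko it lay at 12.76, 12.42 and 11.15 at E16, at 11.25, 11.28, 10.86 and 10.53 at P2, and at 10.27, 9.68, 9.62 and 9.20 at P6. It then lay at 7.74, 8.47, 7.53 and 8.51 at P10 and at 6.82, 12.67, 6.99 and 7.11 at 4 weeks in ko. Apart from replicate 2 at 4 weeks, every ko array from P6 on lay below all ko arrays of the stage before, which held for 9.16%, 5.62% and 6.88% of all genes at P6, P10 and 4 weeks. In wt Sox11 lay at 12.94, 13.17, 12.84 and 12.78 at E16, at 10.77, 12.33, 11.89 and 12.88 at P2, and at 10.003, 11.26, 12.01 and 9.82 at P6. It then lay at 8.96, 8.59, 9.64 and 8.86 at P10 and at 8.12, 8.05, 8.40 and 7.90 at 4 weeks in wt. At E16, P10 and, without replicate 2, 4 weeks, all ko arrays lay below all wt arrays, with differences of -0.82 ± 0.79, -0.95 ± 0.73 and -1.14 ± 0.43, none of which was called (adjusted p = 0.563, 0.604 and 0.186). Of all genes, 5.27%, 4.28% and, without replicate 2, 9.01% lay wholly lower in ko at these stages. Leaving out a single E16 array moved the Sox11 difference at E16 to between -1.14 and -0.34. From E16 to 4 weeks Sox11 fell by 3.71 ± 0.79 in ko (adjusted p = 0.00169), fell by 5.14 ± 0.46 without replicate 2, and fell by 4.82 ± 0.73 in wt (adjusted p = 6.77e-06). Fitted on the arrays of the 2 groups alone, with replicate 2 among them, neither Sox4 nor Sox11 was called in ko. Markers of immature neurons moved with both genes, with 7 of 11 lower at 4 weeks than at E16 in ko, with or without the array labelled ko 4 weeks replicate 2, and 10 of 11 lower in wt. Of all genes, 3.25% were lower in ko, 5.12% without that array, and 11.6% were lower in wt. The mean of these markers at 4 weeks was 8.29 to 8.47 on the other ko arrays, 9.90 on the array labelled ko 4 weeks replicate 2 and 8.07 to 8.56 on wt arrays. The part of immature neurons in the result was not tested.

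**Figure D4:**
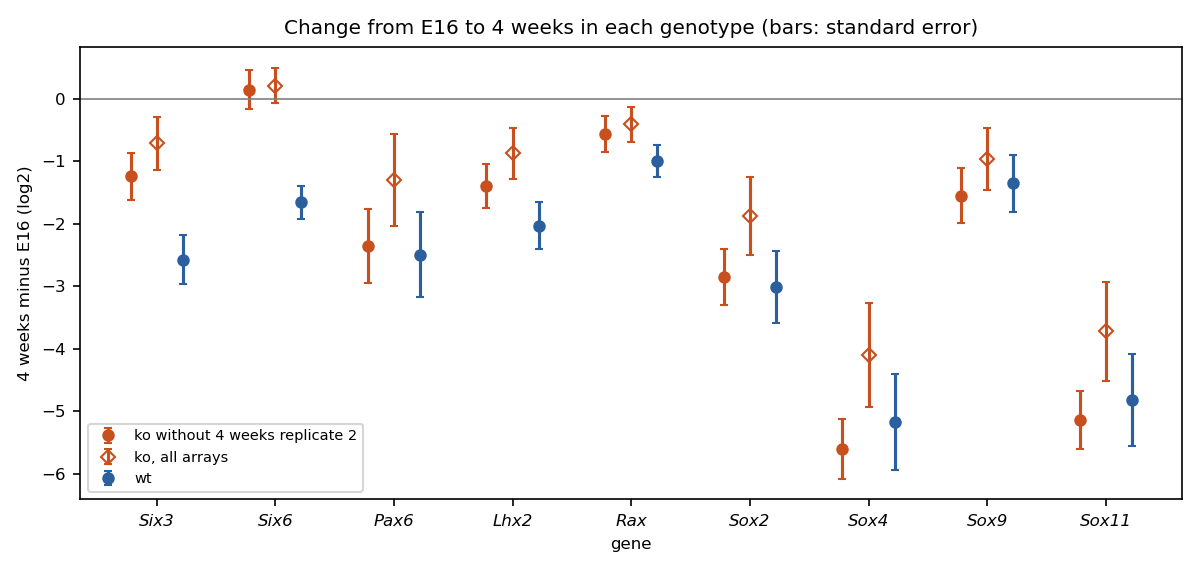
Change from E16 to 4 weeks (4 weeks minus E16, log2, y axis) of each gene in ko without 4 weeks replicate 2 (filled orange), in ko with all arrays (open orange) and in wt (blue), with standard errors as bars. Six6 lies near 0 in ko and at -1.66 in wt, whereas Sox4 and Sox11 lie lowest in both genotypes.

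The change from E16 to 4 weeks was compared between the genotypes directly. The difference of changes (ko minus wt) was called for Six6 only. Without the array labelled ko 4 weeks replicate 2 it was -0.43 ± 0.63 for Sox4, -0.32 ± 0.61 for Sox11, 0.16 ± 0.60 for Sox2, -0.20 ± 0.59 for Sox9 and 0.14 ± 0.78 for Pax6 (adjusted p = 0.999 for each of the 5 in limma). The 95% intervals of these differences reached down to -1.72 (Sox4) and up to 1.72 (Pax6). For Lhx2 it was 0.63 ± 0.47 and for Rax 0.44 ± 0.39 (adjusted p = 0.862 and 0.941). For Six3 it was 1.86 ± 0.58 with all arrays (adjusted p = 0.0783) and 1.34 ± 0.50 without that array (adjusted p = 0.223). Six3 was called when ko 4 weeks replicate 4, wt 4 weeks replicate 1 or wt E16 replicate 2 was left out (lowest adjusted p = 0.0171).

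Over the 4 consecutive steps, 0 of 36 gene and step pairs were called in ko (1.02% of pairs over all genes) and 2 of 36 in wt (2.45% of pairs over all genes), the Six3 and Sox4 steps given above. At an unadjusted p under 0.05 the counts were 6 in ko and 8 in wt, against 10.6% and 17.9% of pairs over all genes. Without the array labelled ko 4 weeks replicate 2, 3 pairs were called in ko and 4 in wt, against 1.28% and 2.83% of pairs over all genes. In ko these were Sox2 from P2 to P6, Sox11 from P6 to P10 (-1.63 ± 0.40, adjusted p = 0.0291) and Sox4 from P10 to 4 weeks. In wt they were the Six3 and Sox4 steps above with Sox4 (-1.88 ± 0.41, adjusted p = 0.0211) and Sox11 (-1.76 ± 0.40, adjusted p = 0.0266) from P6 to P10. Of the 36 differences between a ko step and the wt step, a comparison added after the data were seen, limma called 0, and 2 had an unadjusted p under 0.05 (6.4% of pairs over all genes). At P2, too, 0 of 9 genes were called between the genotypes (0.346% of all genes), while 4 of 9 had an unadjusted p under 0.05, against 5.11% of all genes. Both directions are counted here, since the means of Six6 and Rax were higher in ko at P2 and those of the other genes lower.

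The other probe sets of these genes did not all move with the one of highest mean. All 6 Sox11 probe sets fell in both genotypes between E16 and 4 weeks, with changes of -3.71 to -2.23 in ko and -5.19 to -2.74 in wt. Of the 8 Sox4 probe sets, 2 fell in ko, 4 without the array labelled ko 4 weeks replicate 2, and 5 fell in wt. The Sox4 probe sets 1443778_at and 1458332_x_at, called absent in every column, were higher in ko at P6 by 1.21 (adjusted p over all probe sets 0.00014) and 1.09 (adjusted p = 1.3e-05), the direction opposite to 1433575_at, which represents the gene. Their signals at P6 were 5.04 to 6.06 for 1443778_at in ko, against 4.24 to 4.45 in wt. This probe set also differed between arrays of the same group. At P10 in wt it read 5.078 and 5.011 on replicates 1 and 2, against 4.275 and 4.314 on replicates 3 and 4. At P2 in ko it read 4.429 and 4.365 on replicates 1 and 2, against 5.063 and 5.149 on replicates 3 and 4. The source of these splits was not tested. The Six3 probe set 1426638_at had group means between 7.40 and 7.86 and was not called in any comparison between genotypes or between E16 and 4 weeks. The Six3 probe set 1426637_a_at fell by 0.56 in wt (adjusted p = 0.0352). At E16 it differed between ko and wt by -0.14 only, which was not called (adjusted p = 0.70). Both of these Six3 probe sets were called absent in every column. Of the 5 Pax6 probe sets, 4 fell in wt, and the 3 of them other than 1419271_at had changes of -0.89 to -0.36 only. Pax6 probe set 1437816_at, called present in all 10 columns like 1419271_at, was not lower in ko at most stages. Its ko minus wt difference was 0.06, 0.07, 0.16, -0.10 and 0.18 from E16 to 4 weeks, none of which was called. At E16 1425960_s_at and 1452526_a_at differed by -0.25 and -0.78, and 1456342_at averaged 6.55 in ko and 6.31 in wt, all called absent in every column. The 1452526_a_at difference was not called with all arrays (adjusted p = 0.113 in limma). It was called without the array labelled ko 4 weeks replicate 2 (adjusted p = 0.0256). Of the 3 Sox9 probe sets, 1451538_at alone fell in wt. It was called present in 4 columns, whereas 1424950_at and 1433889_at were called present in 6 columns each.

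**Figure D5:**
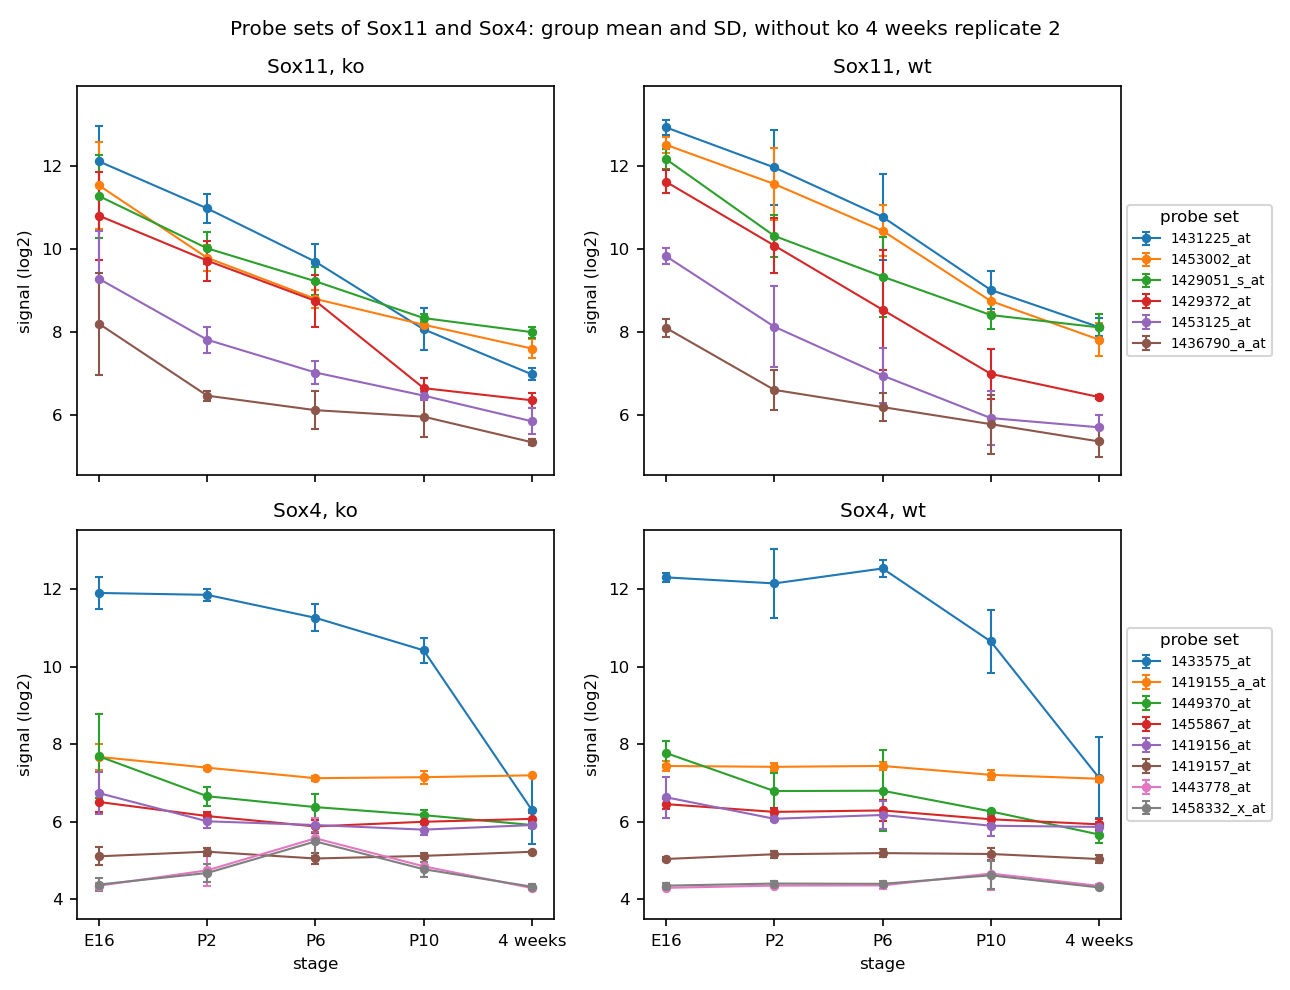
Group mean and SD (log2 signal, y axis) of the 6 Sox11 probe sets and the 8 Sox4 probe sets by stage, ko on the left and wt on the right, without the array labelled ko 4 weeks replicate 2. The Sox11 probe sets decline together, whereas 1 Sox4 probe set, 1433575_at, carries most of the decline and the lowest pair rises to about 5.5 at P6 in ko.

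The 9 genes differed in how alike their patterns were over the 10 group means, computed without the array labelled ko 4 weeks replicate 2 and given as a description over points that share a platform and a course of age. Sox2 and Lhx2 (Pearson r 0.986), Sox2 and Sox11 (0.970) and Lhx2 and Sox11 (0.958) were the closest pairs, and Six6 correlated with the other 8 at -0.10 (Pax6) to 0.66 (Rax). Among 4891 genes whose group means spanned at least 1 log2 unit, Tle3 (0.978), a Groucho family corepressor, was closest to Six6, followed by Ckb and Cacna1h. Gli3 (0.993), a transcription factor of Hedgehog signalling, was closest to Lhx2, Rrm2 (0.988), a ribonucleotide reductase subunit made in dividing cells, to Sox2, and Fat1 (0.991), a protocadherin, to Sox11. Closest to the others were Kmt5a for Six3, Kcnc2 for Pax6, Rpsa for Rax, Ssbp3 for Sox4 and F2r for Sox9, and 19 of the 27 genes in the 3 closest places of each member were the same with all arrays.

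Among partners of these factors, Eya1, a phosphatase and coactivator of sine oculis family proteins, and Tle3, which Six3 and Six6 can recruit for repression, differed in the direction of Six6. Eya1 was higher in ko by 1.47 ± 0.24 at P6, 1.98 ± 0.24 at P10 and 2.91 ± 0.24 at 4 weeks (adjusted p = 0.000313, 9.58e-07 and 9.38e-11). At 4 weeks it read 9.13, 9.77, 10.28 and 10.38 on ko arrays, against 6.38, 7.28, 7.03 and 7.25 on wt arrays, without overlap. Eya1 rose in ko between E16 and 4 weeks by 1.94 ± 0.26 (adjusted p = 2.42e-06) and fell in wt by 1.20 ± 0.24 (adjusted p = 0.00028). Tle3 was higher in ko by 1.98 ± 0.32 at P10 (adjusted p = 0.000105) and by 2.04 ± 0.32 at 4 weeks (adjusted p = 2.44e-05), at 9.90, 10.85, 10.47 and 10.41 in ko and 8.95, 7.79, 7.79 and 8.92 in wt at 4 weeks. Without the array labelled ko 4 weeks replicate 2, the 4 weeks differences were 2.95 ± 0.26 for Eya1 (adjusted p = 7.89e-10) and 1.89 ± 0.34 for Tle3 (adjusted p = 0.000277). Dach2, a dachshund family cofactor, was lower in ko at P2, P6 and P10, with -1.45 ± 0.28 at P2 (adjusted p = 0.00945).

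Of the 9 measured genes of the sine oculis, Eya and Dach list, 1 was higher and 0 were lower in ko at 4 weeks, and of the 10 corepressors and partners, 1 was higher and 0 were lower. Over all genes, 2.11% were higher and 2.62% lower in ko at 4 weeks. Of the 12 LIM homeobox genes and cofactors, 1 was higher, Lhx4, a LIM homeobox factor of photoreceptor precursors and cone bipolar cells, which was higher in ko at P2, P6, P10 and 4 weeks and by 1.87 ± 0.28 at 4 weeks (adjusted p = 1.38e-05). None of the 12 other measured eye field and progenitor homeobox genes was called between the genotypes at 4 weeks (0 with an unadjusted p under 0.05 in limma), nor was any of the 15 other Sox genes (0 with an unadjusted p under 0.05). Of the 17 measured genes of progenitor signalling and the bHLH class, Dll1, a Notch ligand, was higher at 4 weeks by 0.54 ± 0.14 (adjusted p = 0.0127), and Notch1, its receptor, was lower in ko at E16 (-1.13 ± 0.28, adjusted p = 0.0394). The 4 weeks differences without the array labelled ko 4 weeks replicate 2 were 1.85 ± 0.31 for Lhx4 (adjusted p = 8.90e-05) and 0.58 ± 0.15 for Dll1 (adjusted p = 0.0181).

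Between E16 and 4 weeks the progenitor signalling list moved with the 9 genes, with 7 of 17 lower in ko, with or without the array labelled ko 4 weeks replicate 2, and 13 of 17 lower in wt and none higher. Beside this count and those below, 3.25% of all genes were lower in ko, and 5.12% without that array. In wt 11.6% of all genes were lower and 6.66% higher. Ccnd1, the progenitor cyclin, fell by 3.32 ± 0.69 in ko (adjusted p = 0.00128) and fell by 4.58 ± 0.64 in wt (adjusted p = 1.61e-06). Atoh7, the bHLH factor of ganglion cell genesis, fell by 2.82 ± 0.39 in ko and fell by 3.66 ± 0.36 in wt, and Fgf15, a growth factor of progenitors, fell by 1.95 ± 0.38 in ko and fell by 3.38 ± 0.36 in wt. When the array labelled ko 4 weeks replicate 2 was left out, the ko differences were -4.52 ± 0.43 for Ccnd1, -2.96 ± 0.42 for Atoh7 and -2.35 ± 0.36 for Fgf15. Of the 12 other eye field and progenitor homeobox genes, 2 were lower in ko (4 without that array), and 6 were lower and 1 higher in wt, with Meis2, a partner of Pax6, falling by 2.11 ± 0.55 in wt (adjusted p = 0.00477). Of the 15 other Sox genes, 1 was lower in ko, and 2 were lower and 1 higher in wt. Cell cycle markers, of which 17 were measured, were lower for 2 in ko and 9 in wt, and for 9 in ko without the array labelled ko 4 weeks replicate 2. Their mean was 7.38 to 9.02 in ko and 7.40 to 7.68 in wt at 4 weeks, and 8.47 to 8.76 in ko and 8.54 to 8.89 in wt at E16, and the part of dividing cells in the changes of the 9 genes was not tested.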

How the data were processed

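Per the labels, RNA of GFP-sorted cells was amplified and biotin-labelled with the Nugene kit. The deposited table holds log2 signals made by the authors with RMA, named without version or settings in the submitters' processing notes. The authors also deposited detection calls (unit other, present or absent) per probe set and stage. How they combined replicates is not given in the sources used here, and the adult calls were not assigned to a group.

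Of 45101 probe sets, 64 were controls and left out, 34945 had 1 gene, 932 several and 9160 no entry in the annotation. No further normalization or filter was applied. All 39 arrays were fitted with a mean per group over 18193 genes in limma 3.58.1 (R 4.3.3), with Benjamini-Hochberg adjustment within each contrast and calls at an adjusted p under 0.05. The test between ko and wt at P6 was checked on simulated normal values. These had independent genes, the same spread in every group and no array that stands apart. The other tests were not checked in this way. The named genes were the 9 members, their 3 most alike genes, and called genes of related lists with the largest difference, at most 4 a comparison. Members, lists and comparisons were chosen with earlier results of these data known. The labels do not say whether the RNA of replicates came from separate mice, so p-values measure the spread between arrays, whose number limits the precision.

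Same-numbered arrays were checked for pairing. All pairs correlated above 0.1 only for the ko steps from E16 to P2 (3 pairs, 0.30 to 0.74) and P2 to P6 (4 pairs, 0.13 to 0.84), where the pairing comes from the data and not from the labels. Alternatives were normalization, probe set choice, variance models, array weights, a detection filter, a replicate block and leaving out arrays. Figures were drawn with matplotlib.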

Additional observations from a re-analysis of the deposited data

Results flagged for a closer look

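On the array labelled ko 4 weeks replicate 2, Lhx2 at 8.06, Rax at 8.76, Sox2 at 11, Sox9 at 10.08 and Sox11 at 12.67 lay far above the other 3 arrays of the group, which held 5.80 to 6.09, 8.10 to 8.18, 6.84 to 7.34, 7.67 to 7.79 and 6.82 to 7.11. Rax on wt 4 weeks replicate 1 (8.55) lay above the other 3 arrays (8.05 to 8.13). Sox4 on ko P6 replicate 3 (10.75) lay below the others (11.38 to 11.46). By Dixon's test, 7 of 81 gene and group combinations stood out in this way, and chance alone marks about 1 in 20 groups.

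The change of Six6 from E16 to 4 weeks differed between ko and wt by 1.87 (log2), and the Six6 genotype effect differed between stages with an adjusted p of 0.022 in the F test.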

How the results depend on the processing

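No direction of a called result turned under the alternatives run. With all arrays the counts of called genes were 1 at E16, 0 at both P2 and P6, 1 each at P10 and 4 weeks, 2 and 9 for the change from E16 to 4 weeks in ko and wt, 0 and 2 steps in ko and wt, 1 for the difference of changes and 1 for the F test. Without ko 4 weeks replicate 2 the counts were 7 for the ko change, 3 and 4 steps in ko and wt, 1 at P6 and 2 for the F test. Also without the 5 arrays of lowest SD they were 2 at P2, 3 at P6, 2 at P10, 8 for the ko change, 6 and 5 steps, and 3 for the F test. Array weights, estimated gene by gene because the default estimate did not converge (chosen after seeing the data), gave 3 at P2, 6 at P6, 2 at P10, 8 for the ko change, 11 and 12 steps, 3 for the F test and 2 for the difference of changes. Quantile normalization gave 1 at P6 and 1 step in each genotype, and scaling each array gave 1 at P6, 0 steps in ko and 1 in wt. Both gave 3 for the ko change, called Six6 at P6 and lost the wt Six3 step. All probe sets gave 1 and 4 steps and 2 for the F test, and the detection filter gave 3 wt steps and 3 for the ko change. Only the arrays of the groups compared gave 0 at E16, 2 at P6, 0 for the ko change and 4 and 4 steps. With the replicate block, 1 step was called in ko and 2 differences of changes, and no other count of these genes changed. In the 2 steps where every pair correlated, the block gave 203 against 182 calls and 152 against 120 calls over all genes, with 0 of the 9 genes in each. Leaving out single arrays gave 0 to 1 calls at E16, 0 calls at P2, 0 to 1 for P6, 1 for both P10 and 4 weeks, 2 to 7 for the ko change, 8 for the wt change, 0 to 3 steps in ko, 1 to 3 in wt (leaving out wt arrays; 4 without ko 4 weeks replicate 2), 1 to 2 for the difference of changes and 0 to 2 for the F test. The cause of these shifts was not tested.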

Other observations

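Neighbouring groups in the order of levels rarely separated. In Six3 the arrays of wt E16 lay above those of every other group, and the other 9 groups overlapped with their neighbours. In Six6 no group was separate from the next, from wt E16 (mean 8.67) and ko 4 weeks without replicate 2 (8.65) at the top to wt P10 (7.22) and wt 4 weeks (7.02) at the bottom. In Sox11 wt E16 (12.93 ± 0.17, SD, n = 4) lay above ko E16 (12.11 ± 0.85, SD, n = 3), and ko 4 weeks without replicate 2 (6.97 ± 0.14, SD, n = 3) lay below every other group.

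In the LIM homeobox list, Isl2, a factor of motor and ganglion neurons, fell between E16 and 4 weeks by 1.42 ± 0.14 in ko (limma, adjusted p = 1.15e-08) and fell by 1.19 ± 0.13 in wt (adjusted p = 3.04e-08). Ldb2, a LIM domain cofactor, fell by 2.18 ± 0.41 in ko and fell by 1.85 ± 0.38 in wt. Dach1, a dachshund family cofactor, fell by 2.12 ± 0.50 in ko and fell by 2.93 ± 0.46 in wt. Foxn4, a forkhead factor of amacrine and horizontal cell genesis, fell by 0.94 ± 0.22 in ko and fell by 0.88 ± 0.20 in wt. The ko differences without the array labelled ko 4 weeks replicate 2 were -1.39 ± 0.15 for Isl2, -2.39 ± 0.43 for Ldb2, -2.72 ± 0.45 for Dach1 and -1.19 ± 0.20 for Foxn4.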
